A study of Mus musculus with 6 samples.

Results

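The genes described here are markers of the formative and primed epiblast, the states through which pluripotent cells pass after they leave the naive state of the early blastocyst. They were taken by name from the deposited expression table. Of 9 listed names, 8 had a row among the 54352 genes of the table, namely Otx2, Grhl2, Pim2, Pou3f1, Foxd3, Zic2, Zic5 and Fgf5. The name Oct6 had no row of its own, since it is an older name of Pou3f1. All 8 genes passed the filter on low values and were tested. RNA was sequenced from SIRT1 KO mESCs, male mouse embryonic stem cells of the 129Sv/J strain labelled as Sirt1 knockout, and from WT mESCs of the same sex and strain, with 3 libraries per genotype. Sirt1 encodes an NAD-dependent protein deacetylase. By the study's methods both genotypes came from the R1 line and grew in ESGRO, a serum-free medium. The study calls its replicates of these transcriptomes biological, without saying whether they are separate clones or cultures, so p-values measure the spread between the libraries of a genotype and not between independent lines.

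Naive mESCs correspond to the epiblast before implantation. After implantation the epiblast first becomes formative, a state competent for germ layer and germ cell formation, and then primed. OTX2 is a homeodomain factor that drives the exit from the naive state and, with POU3F1 (also called OCT6), opens enhancers of formative genes to OCT4. FGF5 is the classical secreted marker of the post-implantation epiblast, ZIC2 and ZIC5 are zinc finger factors, FOXD3 is a forkhead factor needed to maintain pluripotent cells, GRHL2 is a grainyhead factor that keeps epithelial genes active in formative cells, and PIM2 is a serine/threonine kinase that promotes survival and translation.

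Sirt1 itself was at deposited log2 values of 13.71, 13.72 and 13.79 in SIRT1 KO libraries, against 15.52, 15.54 and 15.49 in WT libraries, so every library matched its label (difference -1.78 on the log2 scale, SE 0.049, limma adjusted p = 1.16e-07). Libraries of the same genotype correlated at 0.9982 to 0.9997 across tested genes, and libraries of different genotypes at 0.9951 to 0.9965. The paper gives an approximate number of reads sequenced per library. The deposited values are normalized and not counts, so the reads counted behind each value are unknown. None of 7 markers of pluripotent cells passed the test, against 16.6% of all tested genes. Their summed linear level was 1395000 to 1429000 in SIRT1 KO libraries and 1311000 to 1442000 in WT libraries. Of the markers of other cell types, 6 of 12 for primitive endoderm were lower and 1 was higher in SIRT1 KO mESCs. Of 10 trophoblast markers 6 were tested and 1 of these was lower (16.7%, against 8.12%). The sum of the 10 was 809.5 to 900.1 in SIRT1 KO libraries and 854.9 to 956.3 in WT libraries, with Prl3d1 and Tpbpa at 0 throughout. Of 10 fibroblast markers 5 were tested, of which 1 was higher (20%, against 8.47%) and 1 lower (20%, against 8.12%). The sum of the 10 was 4642 to 5129 in SIRT1 KO libraries and 4447 to 4823 in WT libraries, with Dcn, Postn and S100a4 at 0 throughout.

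The 8 markers did not change together in SIRT1 KO mESCs. Otx2 and Grhl2 were lower, Pim2 was higher, and Pou3f1, Foxd3, Zic2, Zic5 and Fgf5 did not pass the test. Genes were called at an adjusted p under 0.01 from limma, a linear model with moderated variances, fitted here without pairing of libraries. Benjamini-Hochberg adjustment ran over 26571 genes. At that threshold 3 of 8 markers were called, against 16.6% of all tested genes. For higher genes it was 1 of 8 against 8.47%, and for lower genes 2 of 8 against 8.12%. Among all tested genes 2251 were higher and 2157 lower, or 3099 higher and 1718 lower when each library was centred on its median, while the calls of the 8 markers stayed as they were. The median log2 fold change of the 8 markers was -0.14, beside -0.01 for all tested genes. The SIRT1 KO values did not overlap the WT values for 6 of 8 markers, 2 of them higher and 4 lower, against 44.7% of all tested genes (21.8% higher and 22.9% lower). With so few markers these counts do not set them apart from the other genes.

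**Figure D1:**
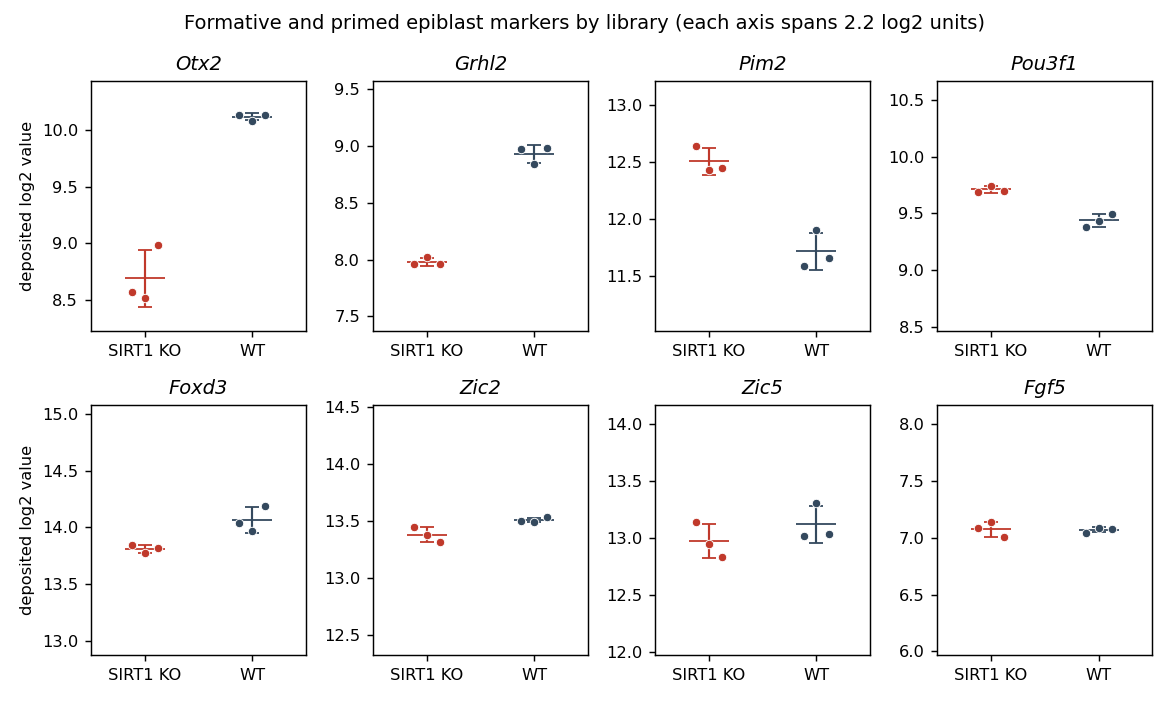
Deposited log2 values of the 8 markers in each library, with SIRT1 KO in red and WT in dark blue. Points are libraries, the horizontal line is the mean of 3 libraries and the bar its SD, and every axis spans the same log2 range. All SIRT1 KO points of Otx2 and Grhl2 lay below the WT points and those of Pim2 above them, while Zic5 and Fgf5 overlapped.

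**Figure D2:**
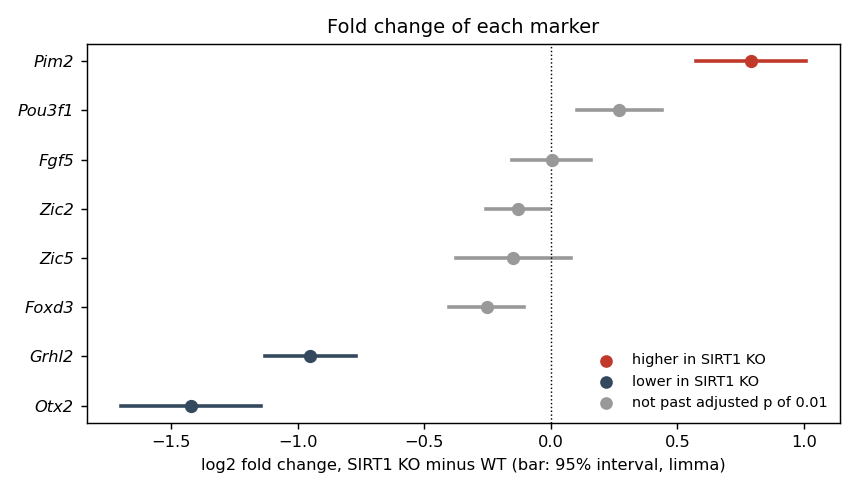
Log2 fold change of each marker (SIRT1 KO minus WT, horizontal axis) with its 95% interval from limma. Red marks higher, dark blue lower and grey not past the adjusted p of 0.01, and the values run from -1.42 for Otx2 to 0.79 for Pim2.

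Otx2 (ENSMUSG00000021848.16) lies on chromosome 14 (GRCm38, 48657677 to 48673819, minus strand) and had the largest change of the 8. It was at log2 values of 8.57, 8.52 and 8.98 in SIRT1 KO libraries, against 10.13, 10.08 and 10.13 in WT libraries. All SIRT1 KO values were below all WT values, and the third SIRT1 KO library stood above the other two of its genotype, while the WT libraries lay close together. The log2 fold change was -1.42 (SE 0.12, 95% interval -1.70 to -1.14, limma adjusted p = 5.27e-05), so the SIRT1 KO level was 0.373 of that in WT. Only 83 of the 26571 tested genes had a more negative log2 fold change. In bulk RNA, fewer cells that express a gene and less RNA of it per cell cannot be told apart.

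Otx2 is also a gene of the primitive and visceral endoderm. Of 12 primitive endoderm markers, 6 fell in SIRT1 KO mESCs (50%, against 8.12% of all tested genes), from -0.45 for Cubn to -0.90 for Col4a1 and with Gata6, Pdgfra, Dab2 and Hnf4a between them, while Sox7 rose by 0.96 and the median log2 fold change was -0.29. Their summed linear level was 57650 to 60230 in SIRT1 KO libraries and 64180 to 69470 in WT libraries, most of it from Lama1, which did not pass (0.05, SE 0.063), and none of the 12 was at 0. The part of these markers in the Otx2 result was not tested. The single tested protein-coding gene that starts within 250 kb of Otx2, Tmem260, differed by -0.04 ± 0.095 (log2, SE, adjusted p = 0.79). Over 37 protein-coding genes within 2.5 Mb on each side the median was 0.09, with 7 higher and 1 lower. Of all tested genes 8.47% were higher and 8.12% lower. Otx2 shares 154 exon bases with the opposite-strand gene Otx2os1, which was too low to be tested, at log2 values from 3.06 to 3.07 in SIRT1 KO libraries and from 3.08 to 3.22 in WT libraries. It also shares 168 with Gm49154 on its own strand, which is listed at 0 in every library. Gm49151 and Gm23469, which start within 20 kb of it, were too low to be tested. The sources used here do not say whether reads were counted by strand.

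Promoter sequences from RefSeq (GRCm38.p6) were at hand for 5 of the 8 genes, and they are shown for Otx2 and Pim2, the called genes that moved in opposite directions, and for Foxd3, which holds an E-box, the motif bound by the c-Myc factor that the study followed. The printed bases lie before a RefSeq start and outside exons of the gene in GENCODE vM21, and run in the direction of transcription. The Otx2 stretch precedes a RefSeq start at 48667644, inside the gene's full annotated span, since a longer transcript begins farther upstream. Capitals mark matches, on either strand, to the E-box CACGTG or to the octamer ATGCAAAT bound by POU factors such as OCT4 and POU3F1. These motifs and TAATCC, the motif of OTX factors, were picked after the windows had been read.
Otx2, chr14:48667645-48667894, minus strand: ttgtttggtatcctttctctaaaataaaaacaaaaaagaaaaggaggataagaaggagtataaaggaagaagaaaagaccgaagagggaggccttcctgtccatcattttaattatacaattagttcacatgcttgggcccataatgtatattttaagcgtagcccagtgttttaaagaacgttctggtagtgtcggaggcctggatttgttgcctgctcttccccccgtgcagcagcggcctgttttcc
Pim2, chrX:7878056-7878261, plus strand: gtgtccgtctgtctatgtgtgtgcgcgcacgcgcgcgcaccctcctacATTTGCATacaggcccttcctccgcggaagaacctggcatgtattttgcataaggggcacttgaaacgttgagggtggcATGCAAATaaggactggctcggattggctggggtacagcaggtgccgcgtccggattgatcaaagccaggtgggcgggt
Foxd3, chr4:99656049-99656298, plus strand: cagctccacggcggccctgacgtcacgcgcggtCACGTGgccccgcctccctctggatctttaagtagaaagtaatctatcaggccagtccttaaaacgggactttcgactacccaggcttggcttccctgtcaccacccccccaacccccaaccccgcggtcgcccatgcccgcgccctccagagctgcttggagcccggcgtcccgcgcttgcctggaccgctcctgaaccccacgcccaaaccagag
The Pim2 window held 2 octamers, beginning 202 and 123 bases before the RefSeq start at 7878306, which lies within the gene as GENCODE gives it. At least 1 octamer was present in 1.74% of 32851 promoter windows of 300 bases, and 2 or more in 0.107%. The Foxd3 window held 1 E-box, which begins 217 bases before the start and was present in 7.15% of windows. Neither motif occurred in the 4 windows of Otx2, of which 1 held TAATCC, a motif found in 7.06% of all windows, nor in those of Fgf5 and Zic5. These are matches of letters, and no binding was measured.

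Grhl2 (ENSMUSG00000022286.16), on the plus strand of chromosome 15 from 37233036 to 37363569, was at log2 values of 7.96, 8.02 and 7.96 in SIRT1 KO libraries, against 8.97, 8.84 and 8.98 in WT libraries. The groups lay far apart relative to their spread, with an SD of 0.034 in SIRT1 KO and 0.079 in WT mESCs (n = 3 each). The log2 fold change was -0.95 (SE 0.079, 95% interval -1.13 to -0.77, limma adjusted p = 4.44e-05), and the SIRT1 KO level was 0.517 of that in WT. The opposite-strand gene Gm16136, which shares 169 exon bases with Grhl2, and Gm16138, which shares none, were too low to be tested, and Gm28221 and Gm23654 nearby are listed at 0. Gm16137, within the Grhl2 locus on the opposite strand, differed by -0.09 ± 0.037 (log2, SE, adjusted p = 0.107).

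Genes of epithelial junctions and surfaces, among them known targets of GRHL2, included more higher than lower genes. Of 18 tested genes of a list of 20, 6 were higher (33.3%, against 8.47% of all tested genes), 2 were lower (11.1%, against 8.12%) and 10 did not pass, with a median log2 fold change of 0.08 against -0.01 for all tested genes. Higher in SIRT1 KO mESCs were Ap1m2, an epithelial clathrin adaptor subunit (log2 fold change 1.18, SE 0.073, limma adjusted p = 9.57e-06), Spint2, an inhibitor of membrane serine proteases (0.85, SE 0.072), and the epithelial splicing factor Esrp2 (0.49, SE 0.064). The 2 lower genes were Rab15, a small GTPase of endosomes (-0.58, SE 0.078), and Ovol2, a zinc finger repressor of the mesenchymal state (-0.64, SE 0.091). Cdh1, which encodes E-cadherin, was at log2 values of 16.23 ± 0.13 in SIRT1 KO and 16.13 ± 0.20 in WT mESCs (SD, n = 3 each) and did not pass (adjusted p = 0.533). It was picked for mention as the standard epithelial marker after its value was known.

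Pim2 (ENSMUSG00000031155.16), on the plus strand of chromosome X from 7878262 to 7883432, was at log2 values of 12.64, 12.43 and 12.45 in SIRT1 KO libraries, against 11.58, 11.90 and 11.66 in WT libraries. Every SIRT1 KO value exceeded every WT value, and the second WT library was the nearest to the SIRT1 KO range. The log2 fold change was 0.79 (SE 0.096, 95% interval 0.57 to 1.01, limma adjusted p = 0.000374), so the SIRT1 KO level was 1.73 times that in WT, and 337 tested genes had a larger rise.

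Genes just downstream of Pim2 were also higher. All 3 genes that start within 20 kb of either end of Pim2 were called, against 16.6% of all tested genes. Slc35a2, which encodes the Golgi transporter of UDP-galactose and starts 5.8 kb away, was at 13.02, 13.02 and 13.07 in SIRT1 KO libraries, against 11.97, 11.89 and 12.07 in WT libraries, a log2 fold change of 1.06 (SE 0.063, limma adjusted p = 7.46e-06). It rose by more than Pim2 in these values, although the difference between the genes was not tested. Pqbp1, a splicing-related protein gene on the opposite strand, had 0.81 (SE 0.080), and Timm17b, a subunit of the mitochondrial import channel, had 0.64 (SE 0.075). A wider stretch was then examined, after these values had been seen. The shares over all tested genes, 8.47% higher and 8.12% lower, are the reference for the counts that follow. Of 11 tested protein-coding genes that start within 250 kb downstream of Pim2, 7 were higher and none was lower, with a median log2 fold change of 0.61. They included Hdac6, a cytoplasmic deacetylase (0.67, SE 0.047), and Suv39h1, an H3K9 methyltransferase (1.12, SE 0.056). Of 12 genes within 250 kb upstream, 2 were higher and none was lower, with a median of -0.06, and Otud5, the nearest of them, had -0.06 (SE 0.054, adjusted p = 0.483). Within the downstream stretch Eras, a Ras-like gene expressed in mESCs, had 0.05 (SE 0.078, adjusted p = 0.673). Over 51 protein-coding genes within 2.5 Mb on each side 11 were higher and 11 lower, and the median was -0.06. How far the change of Pim2 belongs to Pim2 alone was not tested.

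**Figure D3:**
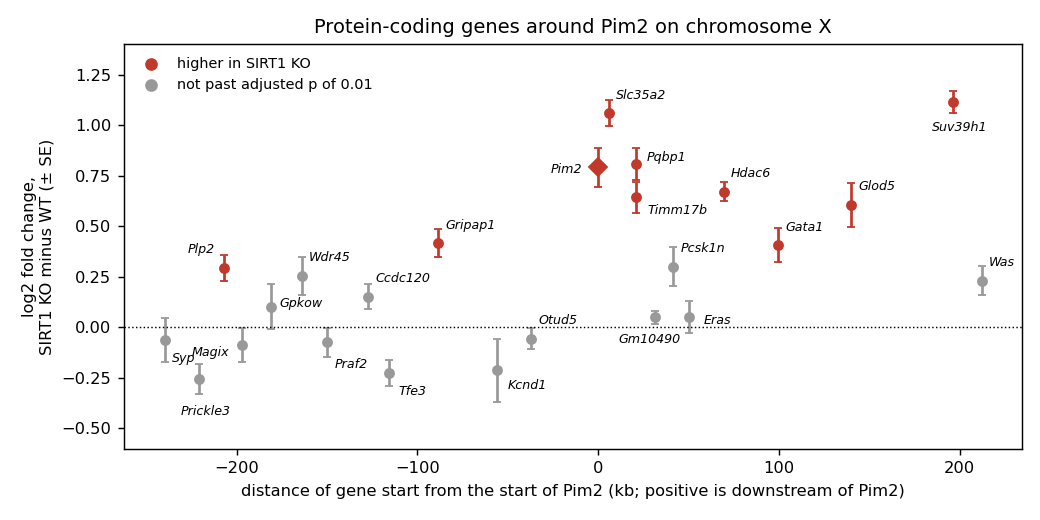
Log2 fold change (SIRT1 KO minus WT, ± SE) of Pim2 (diamond) and of 23 tested protein-coding genes that start within 250 kb of it, against the distance of their starts in kb. Red genes were higher and grey genes did not pass. Upstream of Pim2 2 of 12 were higher, downstream 7 of 11, against 8.47% of all tested genes.

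Pou3f1 and Foxd3 had values that did not overlap between genotypes but did not pass the threshold. Pou3f1 (ENSMUSG00000090125.3, chromosome 4, plus strand, 124656807 to 124660655) was at 9.69, 9.74 and 9.70 in SIRT1 KO libraries, against 9.38, 9.44 and 9.50 in WT libraries. The log2 fold change was 0.27 (SE 0.073, 95% interval 0.10 to 0.44, limma adjusted p = 0.0237). It passed when variances were moderated without a trend (adjusted p = 0.00577), and over 15 alternatives the adjusted p ran from 0.00577 to 0.0903. The values of Pou3f1 thus lay apart in the direction opposite to those of its partner Otx2. It shares 330 exon bases with the opposite-strand gene Gm2164, which is listed at 0 in every library. Among 9 tested protein-coding genes that start within 250 kb of Pou3f1, 3 were higher, 1 was lower and the median was 0.15. Of all tested genes 8.47% were higher and 8.12% lower.

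Foxd3 (ENSMUSG00000067261.4, chromosome 4, plus strand, 99656299 to 99658622) was at 13.84, 13.77 and 13.82 in SIRT1 KO libraries, against 14.04, 13.97 and 14.19 in WT libraries. The log2 fold change was -0.25 (SE 0.065, 95% interval -0.40 to -0.11, limma adjusted p = 0.0188). Without WT replicate 2, the lowest of its group, it was -0.30 and passed (adjusted p = 0.00209), and over 15 alternatives the adjusted p ran from 0.00209 to 0.0859. The noncoding gene Gm12688, which lies upstream of Foxd3 on the opposite strand and shares no exon with it, was called lower. It was at 9.42, 9.77 and 9.56 in SIRT1 KO libraries, against 10.03, 10.11 and 10.26 in WT libraries, a difference of -0.55 ± 0.11 (log2, SE, limma adjusted p = 0.00521). The miRNA gene Gm23366, which shares 89 exon bases with Foxd3, is listed at 0 in every library. The protein-coding genes Alg6 and Efcab7 on the other side of Foxd3 had 0.10 and 0.07 and did not pass.

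The neighbouring genes Zic2 and Zic5 on chromosome 14 differed little between genotypes. They are transcribed away from each other, Zic2 (ENSMUSG00000061524.8) from 122475435 to 122479852 on the plus strand and Zic5 (ENSMUSG00000041703.7) from 122456795 to 122465677 on the minus strand, with starts 9.8 kb apart. Zic2 was at 13.45, 13.38 and 13.31 in SIRT1 KO libraries, against 13.50, 13.49 and 13.53 in WT libraries, so the values were close without overlapping. Its log2 fold change was -0.13 (SE 0.055, 95% interval -0.25 to -0.01, limma adjusted p = 0.11). Zic5 was at 13.14, 12.95 and 12.84 in SIRT1 KO libraries, against 13.02, 13.31 and 13.04 in WT libraries, and the groups overlapped. Its log2 fold change was -0.15 (SE 0.10, 95% interval -0.37 to 0.08, adjusted p = 0.312). The noncoding 2610035F20Rik between the pair was at 9.92, 9.84 and 9.96 in SIRT1 KO libraries, against 10.31, 10.15 and 10.23 in WT libraries, a difference of -0.32 ± 0.078 (log2, SE, adjusted p = 0.0137), and did not pass. Of the other genes within 20 kb, Gm10837 did not pass (adjusted p = 0.96), and Gm9399 and Gm5089 were too low to be tested. Farther away, Pcca, which starts 58.9 kb from the start of Zic2, was higher (log2 fold change 0.93, SE 0.095, limma adjusted p = 0.000142). Over 19 protein-coding genes within 2.5 Mb on each side of Zic2 the median was 0.24, with 9 higher and 2 lower. Of all tested genes 8.47% were higher and 8.12% lower.

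Fgf5 (ENSMUSG00000029337.2, chromosome 5, plus strand, 98254184 to 98277030) showed the smallest difference of the 8. It was at 7.08, 7.14 and 7.002 in SIRT1 KO libraries, against 7.04, 7.09 and 7.08 in WT libraries. The SIRT1 KO values spanned the WT values on both sides. The log2 fold change was 0.00 (SE 0.069, limma adjusted p = 0.982), and its 95% interval ran from -0.15 to 0.16.

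Exact permutation tests of the difference of means, two-sided over the splits of 6 libraries, gave p = 0.1 for the 6 markers without overlap, the smallest that 3 against 3 libraries allow, p = 0.4 for Zic5 and p = 0.9 for Fgf5. No marker can therefore pass 0.05 in this permutation test, whatever its difference. The calls above rest on the linear model of limma and its assumptions, with variances moderated across genes.

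Levels were compared between markers as the log2 of the linear value per kb of merged exon (GENCODE vM21). In SIRT1 KO mESCs the order was Foxd3 at 12.59, Zic2 at 11.85, Pim2 at 11.02, Zic5 at 10.69, Pou3f1 at 7.77, Otx2 at 6.61, Fgf5 at 5.75 and Grhl2 at 4.87 (means of 3 libraries). Each step was larger than the spread, since the ranges of neighbours did not overlap. In WT mESCs it was Foxd3 at 12.85, Zic2 at 11.98, Zic5 at 10.83, Pim2 at 10.23, Otx2 at 8.04, Pou3f1 at 7.50, Grhl2 at 5.83 and Fgf5 at 5.75, where only the ranges of Grhl2 and Fgf5 overlapped. Foxd3 and Zic2 thus led in both genotypes. Pim2 and Zic5, Pou3f1 and Otx2, and Fgf5 and Grhl2 stood in opposite orders in SIRT1 KO and WT mESCs. Among 26266 tested genes with a known length, Foxd3 was at percentile 84.5 in SIRT1 KO and 86.6 in WT mESCs, Otx2 at 34.2 and 46.5, Fgf5 at 26.3 and 25.7 and Grhl2 at 18.2 and 26.4.

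**Figure D4:**
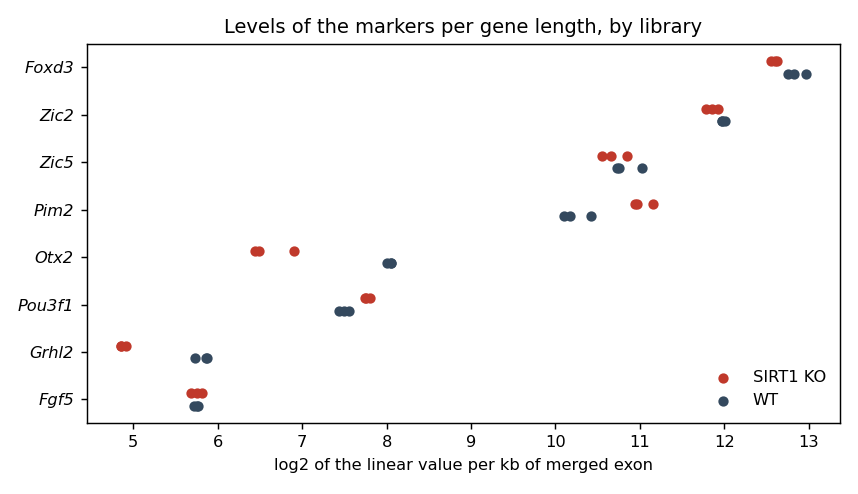
Level of each marker per kb of merged exon on a log2 scale (horizontal axis), with SIRT1 KO libraries in red above WT libraries in dark blue. Foxd3 and Zic2 were the highest of the 8 in both genotypes, and Fgf5 and Grhl2 the lowest.

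Of 18 listed relatives of the markers in the same gene families 16 were tested, of which 1 was lower (6.25%, against 8.12% of all tested genes) and 15 did not pass, with no gene higher (against 8.47%) and a median log2 fold change of -0.07. The lower gene was Fgf2, a growth factor used to hold cells in the primed state, at 7.03 ± 0.069 in SIRT1 KO and 7.86 ± 0.088 in WT mESCs (SD, n = 3 each). Its log2 fold change was -0.83 (SE 0.080, limma adjusted p = 0.000103). Fgf2 is a relative of Fgf5, which was not called. The listed relatives of the called markers, Otx1 and Crx, Pim1 and Pim3, and Grhl1 and Grhl3, had log2 fold changes from -0.20 for Pim3 to 0.21 for Grhl3 and did not pass.

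Other genes of the formative and primed epiblast changed in both directions. Of 29 listed and tested genes, 10 were lower (34.5%, against 8.12% of all tested genes), 5 were higher (17.2%, against 8.47%) and 14 did not pass, and the median log2 fold change was -0.19. Lower genes included Sox3, an early neural and epiblast SOX factor, at 8.78, 8.56 and 8.55 in SIRT1 KO libraries, against 10.69, 10.56 and 10.65 in WT libraries (log2 fold change -2.01, SE 0.089, limma adjusted p = 1.89e-06). Sox4, a SOX factor of progenitor cells, was at 9.52 ± 0.15 in SIRT1 KO and 11.23 ± 0.026 in WT mESCs (SD, n = 3 each), a log2 fold change of -1.71. Dnmt3a and Dnmt3b, de novo DNA methyltransferases, moved in opposite directions. Dnmt3a was at 14.12, 13.89 and 14.00 in SIRT1 KO libraries, against 15.21, 15.20 and 15.21 in WT libraries (log2 fold change -1.20, SE 0.065). Dnmt3b was at 15.21, 15.24 and 15.23 in SIRT1 KO libraries, against 14.63, 14.58 and 14.65 in WT libraries (0.61, SE 0.047). Dnmt3l, their catalytically inactive cofactor, was higher by 0.84 (SE 0.057), and the largest rise was that of Krt18, a simple epithelial keratin (1.67, SE 0.080). The largest fall in the list was that of Lef1 (-2.56, SE 0.17, limma adjusted p = 1.51e-05), which was picked for its size after values were seen. Markers of neural progenitors, some of them genes that work beside Sox3, summed to a linear level of 3048 to 3146 in SIRT1 KO libraries and 4182 to 4293 in WT libraries. Of these markers 5 were tested, 1 of them was lower (20%, against 8.12% of all tested genes) and none was at 0. The part of these markers in the result was not tested. The list was put together with earlier results of these data known and is not independent of them.

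**Figure D5:**
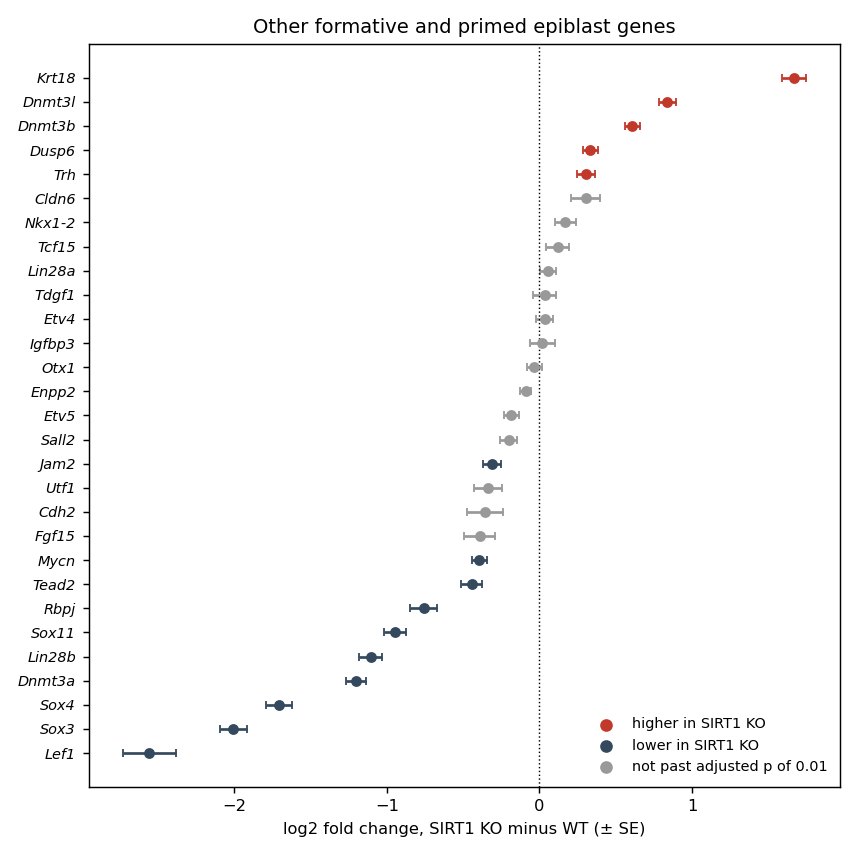
Log2 fold change (SIRT1 KO minus WT, ± SE) of 29 other formative and primed epiblast genes, ordered by value. Dark blue genes were lower (10), red genes higher (5), and grey genes did not pass.

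Genes of naive pluripotency also changed in both directions. Of 20 naive genes 5 were lower (25%, against 8.12% of all tested genes) and 2 higher (10%, against 8.47%), and 13 did not pass, with a median log2 fold change of -0.20 beside -0.01 for all tested genes. The lower genes with the smallest adjusted p were Prdm14, a repressor of FGF signaling and DNA methylation (-0.76, SE 0.057), Dppa3, a germline and naive factor also called Stella (-0.62, SE 0.075), and Spic (-0.56, SE 0.092). The higher ones were Tcl1, an activator of AKT (0.48, SE 0.055), and Klf5, a Krüppel-like factor (0.53, SE 0.11). Of 6 core genes Sall4, a zinc finger factor, was lower (-0.35, SE 0.057), a share of 16.7% against 8.12% of all tested genes, and the other 5, Pou5f1 and Sox2 among them, did not pass.

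Among all tested genes, those closest to the called markers in their pattern over the 6 libraries were found by the root mean square distance of values centred on each gene's mean. For Otx2 they were Slc38a5 at a distance of 0.105, Eva1a at 0.11 and Skor1 at 0.122. For Grhl2 they were Porcn at 0.0257, Mrpl19 at 0.0298 and Slc27a3 at 0.0309. For Pim2 they were Ina at 0.0347, Klf12 at 0.0357 and Bspry at 0.0461. The distance covers the difference between genotypes as well as the spread within them, so genes near a marker also had a similar fold change.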

How the data were processed

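RNA from 3 SIRT1 KO and 3 WT mESC libraries was analysed. Per the paper's methods, the authors trimmed adaptors with Trim Galore, aligned reads to GRCm38 with STAR and a Gencode annotation and used featureCounts for gene counts, which DESeq2 normalized. The deposited values are labelled as log2 normalized expression from featureCounts and DESeq2, and which DESeq2 transformation made them is not stated. The paper describes ribosomal RNA depletion and the labels poly(A) enrichment. Values are not counts, so count tests were not run. The paper gives an approximate sequencing depth per library, but the reads counted per gene are unknown.

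Genotypes were compared with limma 3.58.1 in R 4.3.3 (mean-variance trend, Benjamini-Hochberg adjustment, threshold 0.01) over 26571 genes whose mean linear value was 10 or more, of 37703 genes not at 0 in all libraries. The steps were tested on simulated data. Positions are from GENCODE vM21 on GRCm38, matched by name (53644 of 54352 names matched 1 gene), and promoters from RefSeq. Coordinates and exon lengths thus come from a later release than that of the authors.

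Named were all markers, in each list the called genes with the lowest adjusted p (at most 3 per direction), the 3 nearest patterns of each called marker, genes overlapping a marker or starting within 20 kb of it, and Sirt1. The genes within 250 kb of markers, the relatives of called markers, and Cdh1, Lef1, Pou5f1, the primitive endoderm markers, Sox2, Cer1 and Lhx1 were added after values were seen. Members, lists and rules were chosen with earlier results of these data known. An item that is not reported here was left out of the lists and their counts, and stayed in the fit over all genes.

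Deviations from the group mean correlated at 0.242, 0.149 and 0.316 between libraries with the same replicate number, and at -0.301 to 0.0838 between those with different numbers. The paper calls the replicates biological, and neither it nor the labels say that libraries with the same number share a culture, batch or day. With all 3 above 0.1 the numbers were read as possible pairs, from the data alone. The main fit left this pairing out, and it entered only in an alternative with a replicate block. Alternatives were a replicate block, filters, a pseudocount, scalings, moderation, a threshold of 0.05, and leaving out each library.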

Additional observations from a re-analysis of the deposited data

How the results depend on the processing

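The calls of Otx2, Grhl2 and Pim2 held their direction and passed under all 15 alternatives, with log2 fold changes from -1.57 to -1.34, from -0.996 to -0.871 and from 0.72 to 0.88, and adjusted p of at most 0.000759, 0.000624 and 0.0032 from limma. The number of markers higher was 2 in place of 1 without the variance trend and at the threshold of 0.05, each time with Pou3f1 added, and at 0.05 the number lower was 3 in place of 2, with Foxd3 added. It was 1 whichever library was left out, and the number lower was 2 to 3, with Foxd3 added without WT replicate 2. With the replicate number as a block, 1 marker was higher and 2 were lower, the same genes as without it, and no other call of a marker changed (adjusted p of Pim2 0.000635). Zic2 and Zic5 passed under none of the alternatives. Fgf5 changed sign without SIRT1 KO replicate 1 or 2 and without WT replicate 1, at log2 fold changes from -0.028 to 0.039 over the libraries left out.

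Over all genes, 3804 were higher and 3762 lower at the threshold of 0.05. Leaving out a library gave 1201 to 2794 higher and 1284 to 2669 lower genes. Leaving out SIRT1 KO replicate 2 gave 1206 higher and 1284 lower genes, and leaving out its replicate 3 gave 1201 and 1331. With WT replicate 3 left out 1413 were lower. These fits hold fewer libraries. Precision is limited by 3 libraries per genotype, and the reads counted behind each value are not known. The transformation is not stated, so its effect on the fold changes of low genes is unknown.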

Other observations

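Of 14 tested primitive streak and gastrulation genes 2 were higher (14.3%, against 8.47% of all tested genes), 1 was lower (7.14%, against 8.12%) and 11 did not pass, with a median log2 fold change of -0.04 beside -0.01 for all tested genes. Eomes, a T-box factor of the primitive streak, was at 13.67, 13.54 and 13.57 in SIRT1 KO libraries, against 13.06, 13.10 and 13.19 in WT libraries (log2 fold change 0.48, SE 0.060, limma adjusted p = 0.000465), and Cdx1, a caudal-type homeobox gene, was higher by 0.50 (SE 0.088). Gsc, a homeobox gene of the anterior streak, was at 7.21, 7.39 and 7.33 in SIRT1 KO libraries, against 7.90, 8.11 and 8.22 in WT libraries (-0.77, SE 0.10). Cer1 and Lhx1 were too low to be tested.

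Of 15 tested neuroectoderm genes 1 was higher (6.67%, against 8.47% of all tested genes), 2 were lower (13.3%, against 8.12%) and 12 did not pass, with a median of -0.04. With so few genes these shares do not set either list apart from all tested genes. Nes, which encodes the neural stem cell filament nestin, was at 14.54, 14.53 and 14.49 in SIRT1 KO libraries, against 13.66, 13.51 and 13.77 in WT libraries (log2 fold change 0.87, SE 0.069, limma adjusted p = 3.38e-05). Sox1, the earliest neural plate SOX factor, was at 11.03, 11.05 and 11.01 in SIRT1 KO libraries, against 11.62, 11.72 and 11.63 in WT libraries (-0.62, SE 0.062), and Pax2 was lower by 0.60 on the log2 scale (SE 0.078).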
